A study of Homo sapiens with 4 samples.

Results

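The miR-548 family is a large group of primate miRNAs, and its entries were taken here as every row of the deposited table of mature miRNAs whose name begins hsa-miR-548, whatever its letter suffix or arm. This gave 81 of the 2656 rows. The table came from 4 small RNA libraries of HEK293T, a human embryonic kidney line that carries the large T antigen. All 4 came from monoclonal lines with a landing pad, a genomic site built to receive a transgene: 2 libraries had the PGK promoter in the pad, from a phosphoglycerate kinase gene, and 2 had the CAG promoter, a strong composite of viral enhancer and chicken actin gene elements. The series asked which miRNAs differ between lines with the 2 promoters. A monoclonal line descends from 1 cell, and the sources used here give neither the number of lines nor whether replicates were separate cultures. Promoter and clone therefore cannot be told apart, and p-values measure only the spread between these libraries, which may be technical.

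A miRNA is cut from a hairpin RNA, and either strand of the stem, the 5p or the 3p arm, can be loaded into an Argonaute protein. Bases 2 to 8 of the loaded strand, the seed, then find target messenger RNAs by base pairing. The miR-548 genes derive from MADE1, a short palindromic element of the mariner class of DNA transposons. When such an element is transcribed, its inverted repeats fold back on each other into a hairpin. Copies of the element lie scattered through primate genomes, many of them in introns, so the family has many loci and closely similar mature sequences.

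RefSeq (GRCh38.p14) gave a mature sequence for 55 of the 81 entries, with 29 distinct seeds. The most abundant entries with a sequence are shown first, 5′ to 3′, with the seed in capitals, because they carry most of the family's reads.
miR-548o-3p: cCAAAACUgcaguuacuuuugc
miR-548f-3p: aAAAACUGuaauuacuuuu
miR-548k: aAAAGUACuugcggauuuugcu
miR-548am-3p: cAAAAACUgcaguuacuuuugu
miR-548bc: aAAAACUGugauuacuuuugc
miR-548b-5p: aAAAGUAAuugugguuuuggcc

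The entries below were called higher in CAG cells and are shown so that they can be compared with the abundant ones.
miR-548ay-3p: cAAAACCGcgauuacucuugca
miR-548ba: aAAGGUAAcugugauuuuugcu
miR-548ar-3p: uAAAACUGcaguuauuuuugc
miR-548ah-3p: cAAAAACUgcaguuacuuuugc
miR-548p: uAGCAAAAacugcaguuacuuu

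3 more 3p entries are shown, miR-548aq-3p and miR-548av-3p because they differ from those above by little or are contained in them, and miR-548s because it shares a stretch with them further from its 5′ end.
miR-548aq-3p: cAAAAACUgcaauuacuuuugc
miR-548av-3p: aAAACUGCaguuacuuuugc
miR-548s: aUGGCCAAaacugcaguuauuuu

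The sequences share short motifs, which were picked by hand for this family, so the shares below are a description. AGUAA and UUACU are reverse complements of each other, so searching the mature RNA for both covers both strands of the element. AGUAA was found in 18 of the 55 entries, 17 of them 5p, and UUACU in 19, 18 of them 3p and the other without an assigned arm. At least 1 of these motifs was present in 37 entries (67.3%), against 2.42% of the 2312 other entries of the table that had a sequence. The longer AAAAGU, which overlaps AGUAA in some entries, was found in 22 entries, all 5p, and in 0.26% of the others. The entries are rich in A and U, with a median of 66.7% A plus U (45.5% to 84.2%) against 47.8% in the other entries. Their length was 18 to 23 bases. Across the 686 tested miRNAs with a sequence, A plus U content and the log2 fold change between the groups had a Spearman correlation of 0.06, and over the 30 tested miR-548 entries with a sequence it was 0.12. Both are descriptions over miRNAs that share the same 4 libraries.

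The mature sequences mapped to 64 listed positions on 21 chromosomes. Of these, 42 lay in an intron of a gene on the same strand in GENCODE release 29, and 15 lay in no annotated coding or long noncoding gene. miR-548o-3p can come from MIR548O (GRCh38, chr7:102405748-102405769, minus strand, in an intron of PRKRIP1 on the opposite strand) and from MIR548O2 (chr20:38516607-38516628, plus strand, in an intron of RALGAPB). miR-548f-3p has 5 hairpins, in introns of PCDH15, ERBB4, TMEM232, CNTNAP2 and DMD, that in CNTNAP2 on the strand opposite to the gene. miR-548k lies in an intron of PPFIA1 and miR-548am-3p in an intron of CTPS2 on the X chromosome. A count for an entry with several hairpins cannot say which hairpin was transcribed.

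The PGK libraries held 7927615 and 7331437 counts, and the CAG libraries 13780279 and 2845945 (replicates 1 and 2 in this order throughout). Counts were scaled to a common library size (CPM) with TMM factors. The weight of 1 read ranged from 0.0776 CPM in CAG replicate 1 to 0.324 CPM in CAG replicate 2, the shallowest library. Where an entry had no read, 3 counts over the library total set its upper limit, 0.218 CPM for CAG replicate 1 and 1.05 CPM for the shallow CAG replicate 2, for counting error only. The 6 miRNAs listed for HEK293T, such as miR-10a-5p, miR-92a-3p and miR-17-5p, were all present and summed to 232000 to 251000 CPM. The summed level in a library was at most 2.27 CPM for 6 blood markers, 2.65 CPM for the liver miRNA miR-122-5p, 0.375 CPM for the neuronal miR-124 arms and 0.139 CPM for the muscle markers miR-206 and miR-133b. Other miRNAs known from muscle or brain, looked up after these lists, were present and did not share a direction. Lower in CAG cells were miR-1-3p, with a mean of 57.4 CPM (log2 fold change −2.61, edgeR adjusted p = 9.33e-06), miR-133a-3p with 1.19 CPM (−3.09, edgeR adjusted p = 0.0171) and miR-9-5p with 2950 CPM (−1.06, edgeR adjusted p = 0.00196). Higher were miR-129-5p with 216 CPM (0.79, edgeR adjusted p = 0.0199) and miR-132-5p with 111 CPM (0.70, edgeR adjusted p = 0.03). Neither miR-128-3p with 14800 CPM (−0.07) nor miR-499a-5p with 7.6 CPM (0.20) was called. Their part in the results on miR-548 was not tested.

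Most of the family was present, but at low levels, and 1 entry dominated it. Of the 81 entries, 73 had at least 1 read and 58 had reads in all 4 libraries. A mean of at least 1 CPM was reached by 45 entries, at least 10 CPM by 22 and at least 100 CPM by 6. The 8 entries at 0 in every library were miR-548ad-3p, miR-548ao-5p, miR-548ap-3p, miR-548as-3p, miR-548au-3p, miR-548aw, miR-548ax and miR-548x-5p, which allows up to 0.0941 CPM over all libraries together. Each library had reads for 60 to 69 of the entries.

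**Figure D1:**
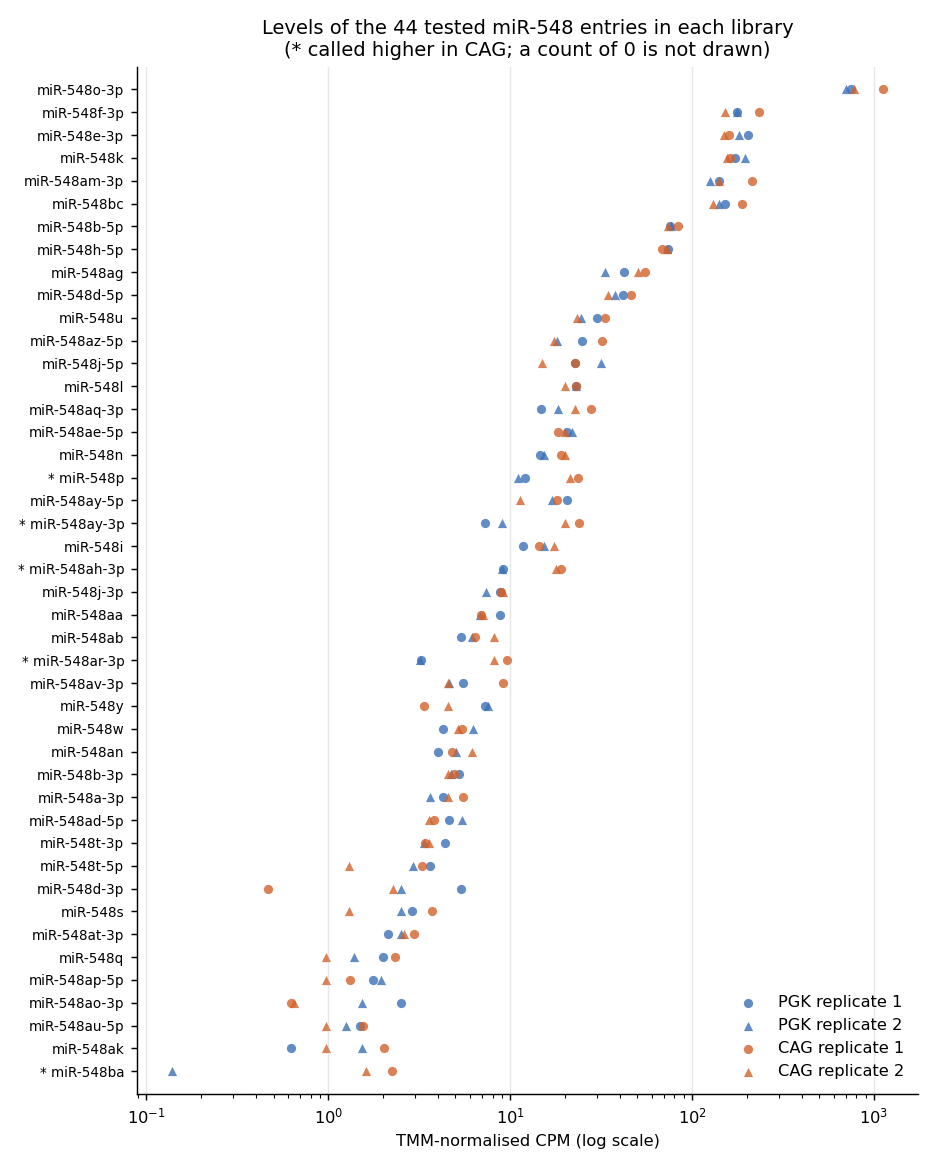
Level of each of the 44 miR-548 entries that passed the low-count filter (rows, ordered by mean level) in TMM-normalised CPM on a log axis, with 1 point per library. miR-548o-3p, at 705 to 1120 CPM, stands apart from the next entries, and the CAG points lie to the right of the PGK points in the 5 rows with an asterisk.

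miR-548o-3p had levels of 746 and 705 CPM in the PGK libraries, against 1120 and 772 CPM in CAG replicates 1 and 2. This single entry held 34.4% to 41.4% of the family's reads in each library. Its log2 fold change (CAG minus PGK) was 0.38 (SE 0.21; edgeR adjusted p = 0.257), and CAG replicate 1 alone stood well above the PGK libraries. Without CAG replicate 2 it was called higher (log2 fold change 0.63; edgeR adjusted p = 0.00759), and without CAG replicate 1 the log2 fold change was 0.09.

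The next 5 entries by mean level had 125 to 232 CPM in each library. miR-548f-3p was at 176 and 177 CPM in PGK and at 232 and 152 CPM in CAG, so the CAG pair enclosed the PGK values. miR-548e-3p was at 203 and 180 CPM in PGK and at 160 and 149 CPM in CAG. miR-548k was at 172 and 196 CPM in PGK and at 161 and 155 CPM in CAG. In miR-548e-3p and miR-548k both CAG libraries were below both PGK libraries, with log2 fold changes of −0.31 (SE 0.18) and −0.22 (SE 0.18), and neither was called. miR-548am-3p was at 141 and 125 CPM in PGK and at 213 and 141 CPM in CAG, with CAG replicate 1 again the high library. Its log2 fold change was 0.42 (SE 0.22; edgeR adjusted p = 0.249), and without CAG replicate 2 it was called higher (0.68; edgeR adjusted p = 0.0157). miR-548bc was at 152 and 140 CPM in PGK and at 187 and 130 CPM in CAG.

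Among the remaining entries of the 12 most abundant, 5p entries led. miR-548b-5p and miR-548h-5p had means of 77.2 and 72.0 CPM and log2 fold changes of 0.06 and −0.06 (SE 0.19 for each). miR-548ag, which has hairpins on chromosomes 4 and 20, was at 42.2 and 33.3 CPM in PGK and at 55.2 and 50.5 CPM in CAG, and its log2 fold change of 0.49 was not called (edgeR adjusted p = 0.171). miR-548d-5p, miR-548u and miR-548az-5p had means of 40.1, 27.8 and 23.1 CPM, and none of the 3 was called. The 12 entries together took 86.5% to 88.4% of the family's reads.

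**Figure D2:**
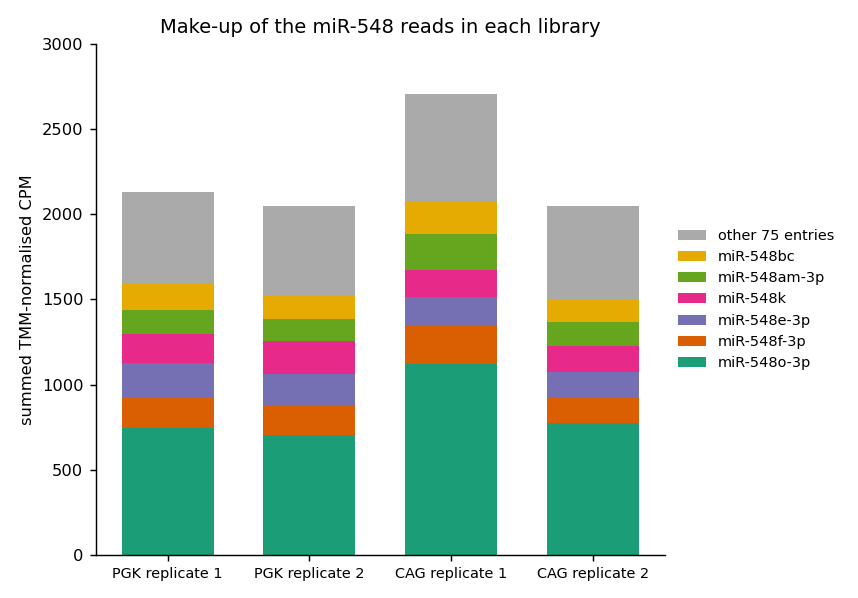
Summed TMM-normalised CPM of the miR-548 entries in each library (bars), split into the 6 most abundant entries and the other 75. The sum is 2132 and 2050 CPM for PGK replicates 1 and 2 and reaches 2703 and 2049 CPM for CAG replicates 1 and 2, and miR-548o-3p is the largest block in every bar.

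As a sum the family was a small part of each library and the groups overlapped. It held 0.215% and 0.201% of all counts in the PGK pair, and the CAG pair had 0.253% and 0.222%. Summed levels were 2091 ± 58.3 CPM for the PGK and 2376 ± 462 CPM for the CAG libraries (mean ± SD, n = 2), a log2 ratio of 0.18 beside a spread within groups of 0.2 (pooled SD of the log2 sums). CAG replicate 2, at 2049 CPM, was below PGK replicate 2, at 2050 CPM. With totals alone as the scale, the CAG libraries stood at 2526 and 2222 CPM and the PGK libraries at 2150 and 2006 CPM, so the overlap depends on the scaling. Without miR-548o-3p the log2 ratio of the TMM-scaled sums was 0.07. No p is given for this sum.

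An arm could be assigned to all but 7 entries, from the name or, for 18 of them, from the position in the hairpin, and both readings gave the same arm in all 36 entries where both could be had. There were 41 entries on the 5p and 33 on the 3p arm. The 3p entries held more of the reads: the 5p share of reads with an assigned arm was 29.2% (95% exact binomial interval 28.5% to 29.9%) and 31.1% (30.4% to 31.9%) in PGK replicates 1 and 2. It was 23.6% (23.1% to 24.1%) and 28.0% (26.9% to 29.2%) in CAG replicates 1 and 2. Both CAG libraries were below both PGK libraries, but the CAG pair differed by more than the distance from its higher value to the nearer PGK library. The difference of the means was −4.34 percentage points beside a spread within groups of 2.44 points (pooled SD). The intervals cover counting error within a library only and leave out the spread between libraries. PCR copies of a molecule could not be told apart, so they may be too narrow even for that. In TMM-scaled CPM the 5p entries summed to 571 and 588 in PGK and 588 and 531 in CAG, while the 3p entries summed to 1387 and 1299 in PGK and 1904 and 1363 in CAG. CAG replicate 1 carried most of the difference on the 3p side.

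The comparison of CAG with PGK cells asked which single entries differed. The low-count filter kept 44 of the 81 entries, within 773 miRNAs tested together. Of the 44, 5 were higher in CAG cells and 0 were lower (edgeR quasi-likelihood test, Benjamini-Hochberg adjusted p under 0.05 over all 773). The background was 8.15% of all tested miRNAs called higher, 6.08% called lower and 14.2% called in either direction. The 5 called entries were 11.4% of the 44, a share no larger than that background of 14.2%. They include miR-548ba, which passed the filter only through the CAG libraries, where it was high. At an unadjusted p under 0.05, edgeR counted 7 higher and 3 lower entries, 10 in all, against 26.9% of all tested miRNAs. DESeq2 called 4 higher and 0 lower, and limma-voom called 5 higher and 1 lower, miR-548d-3p. Among the 32 entries followed over alternatives, DESeq2 gave no adjusted p for miR-548ba, miR-548d-3p, miR-548ao-3p and miR-548s. The median log2 fold change was 0.13 over the 44 and −0.0042 over all 773, and 28 of the 44 (63.6%) had a positive value against 49.8% of all. In 14 entries both CAG libraries were above both PGK libraries and in 9 both were below, where the whole table had 29.8% above and 27.4% below.

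**Figure D3:**
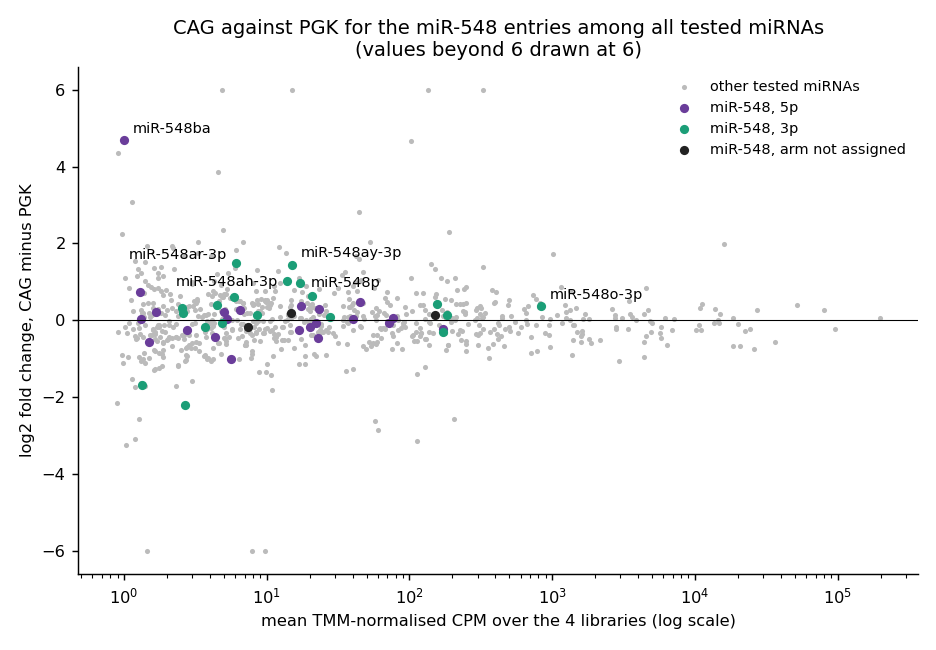
Log2 fold change (CAG minus PGK) against the mean level over the 4 libraries (log axis), with 1 point per tested miRNA. The 44 miR-548 entries are coloured by arm over the grey points of the other miRNAs, and most lie close to 0, with the 5 called entries and the abundant miR-548o-3p named.

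miR-548ay-3p had the smallest adjusted p of the family. It was at 7.26 and 9.06 CPM in PGK cells and at 23.8 and 20.1 CPM in the CAG libraries. Both CAG libraries were above both PGK libraries, and the gap was larger than the distance within either pair. It rose 2.74-fold, from 8.16 ± 1.28 to 21.9 ± 2.59 CPM (mean ± SD, n = 2), a log2 fold change of 1.45 (SE 0.27; edgeR adjusted p = 0.00513). RefSeq places it at chr3:32506305-32506326 (GRCh38, minus strand), within no annotated coding or long noncoding gene.

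miR-548ar-3p, from an intron of CDC16, a subunit gene of the anaphase-promoting complex, was at 3.25 and 3.21 CPM in PGK cells and at 9.63 and 8.10 CPM in the CAG libraries. The PGK libraries were nearly equal and the CAG libraries did not overlap with them. It rose 2.82-fold, from 3.23 ± 0.0328 to 8.86 ± 1.08 CPM (mean ± SD, n = 2; log2 fold change 1.49, SE 0.32; edgeR adjusted p = 0.0106) and sits at chr13:114244541-114244561 (GRCh38, plus strand). The counts behind it were 26 and 23 reads in PGK and 124 and 25 reads in CAG.

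miR-548ah-3p, in an intron of SHROOM3, a gene for an actin-binding protein of epithelia, was at 9.13 and 9.06 CPM in PGK cells and at 19.1 and 17.8 CPM in the CAG libraries (chr4:76575597-76575618, GRCh38, plus strand). It rose 2.04-fold, from 9.10 ± 0.0504 to 18.5 ± 0.903 CPM (mean ± SD, n = 2), a log2 fold change of 1.03 (SE 0.26; edgeR adjusted p = 0.0257). miR-548p, in an intron of ST8SIA4, a polysialyltransferase gene, was at 12.1 and 11.0 CPM in PGK cells and at 23.5 and 21.4 CPM in the CAG libraries (chr5:100816498-100816519, GRCh38, minus strand). It rose 1.96-fold, from 11.6 ± 0.793 to 22.5 ± 1.51 CPM (mean ± SD, n = 2), a log2 fold change of 0.97 (SE 0.25; edgeR adjusted p = 0.0288). The groups of both entries were separate and each pair was tight.

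miR-548ba was the rarest of the called entries and nearly absent from PGK cells. It had 0 and 1 reads in PGK replicates 1 and 2 and 29 and 5 reads in CAG replicates 1 and 2, which is 0.139 CPM in PGK replicate 2 and 2.25 and 1.62 CPM in CAG. The ratio of pooled reads was 31.2 (95% exact interval 5.23 to 1270). That interval covers counting error and leaves out the spread between libraries. For miR-548ba edgeR gave an adjusted p of 0.0065. Without PGK replicate 2 it was at least 5.4-fold higher, against 3 counts, and without PGK replicate 1 the ratio was 15. It was the only tested entry that reached the filter's minimum in the CAG libraries alone. It thus passed only through the group where it was high, so its call is no separate support for a difference. It lies at chr2:49059603-49059624 (GRCh38, plus strand) in an intron of the long noncoding gene AC009975.1.

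The calls rest on few libraries. None of the 5 was called without PGK replicate 1 (edgeR adjusted p of 0.132 to 0.171) or without PGK replicate 2 (0.13 to 0.237), although the direction was kept. Without CAG replicate 1 only miR-548ay-3p stayed called (edgeR adjusted p = 0.0306) and miR-548ba was not tested, and without CAG replicate 2 the count of higher entries was 7. In those fits the lone library is assumed to vary like the other group. Over all miRNAs, 63 higher and 47 lower with every library, the count was 12 higher and 7 lower without PGK replicate 1 and 10 higher and 6 lower without PGK replicate 2. Without CAG replicate 1 it was 60 higher and 46 lower, close to the count with every library, and without CAG replicate 2 it was 84 higher and 78 lower.

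The lowest fold changes did not pass the test. miR-548d-3p was at 5.38 and 2.51 CPM in PGK cells and at 0.466 and 2.27 CPM in the CAG libraries, with CAG replicate 1 far below the others. Its log2 fold change was −2.21 (SE 0.67; edgeR adjusted p = 0.0571), and it was called lower without CAG replicate 2 (−3.06; edgeR adjusted p = 0.000631), while without CAG replicate 1 the value was −0.81. miR-548y was at 7.26 and 7.53 CPM in PGK and at 3.34 and 4.54 CPM in CAG, a log2 fold change of −1.01 (SE 0.33; edgeR adjusted p = 0.0652), called without CAG replicate 2 (−1.14; edgeR adjusted p = 0.0404). miR-548ao-3p had 20 and 11 reads in PGK and 8 and 2 in CAG, a log2 fold change of −1.68 (SE 0.60; edgeR adjusted p = 0.09). Of these, miR-548d-3p and miR-548ao-3p, like miR-548q and miR-548ap-5p, reached the filter's minimum in both PGK libraries but not in both CAG libraries. In 32 of the 44 entries the log2 fold change was within 0.5 of 0.

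The arms can be set side by side by their counts and medians. Among 19 tested 3p entries 4 were called and 14 had a positive log2 fold change, with a median of 0.31 (−2.21 to 1.49). Among 22 tested 5p entries 1 was called and 12 were positive, with a median of 0.04 (−1.01 to 4.69). The called 5p entry was miR-548ba, which passed the filter only through the CAG libraries, where it was high. Over all 773 tested miRNAs 8.15% were called higher, 14.2% were called in either direction and 49.8% had a positive value. The difference between the arms was not tested.

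Both arms passed the filter in 5 names. For miR-548ay the 3p entry rose, as given above, while the 5p entry was at 20.4 and 16.9 CPM in PGK and at 18.1 and 11.3 CPM in CAG, a log2 fold change of −0.26 (SE 0.28; edgeR adjusted p = 0.604). The 5p share of the reads of this pair was 73.8% and 65.1% in PGK and 43.2% and 36.1% in CAG, so the more abundant arm was the 5p in both PGK libraries and the 3p in both CAG libraries. The difference in this share was not tested. No mature sequence was available for miR-548ay-5p, for either miR-548d entry or for miR-548t-3p. Near-copies that may share their reads could therefore not be looked for by sequence, and these shares may depend on how such reads were counted. miR-548b kept its 5p share between 93.5% and 94.5% in all 4 libraries. For miR-548d the share was 88.6% and 93.8% in PGK and 99.0% and 93.9% in CAG, and for miR-548j it was 72.1% and 81.0% in PGK and 71.7% and 62.2% in CAG. miR-548t was at 45.3% and 46.7% in PGK and at 48.8% and 26.7% in CAG, where CAG replicate 2 had 4 and 11 reads on the 5p and 3p entries.

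**Figure D4:**
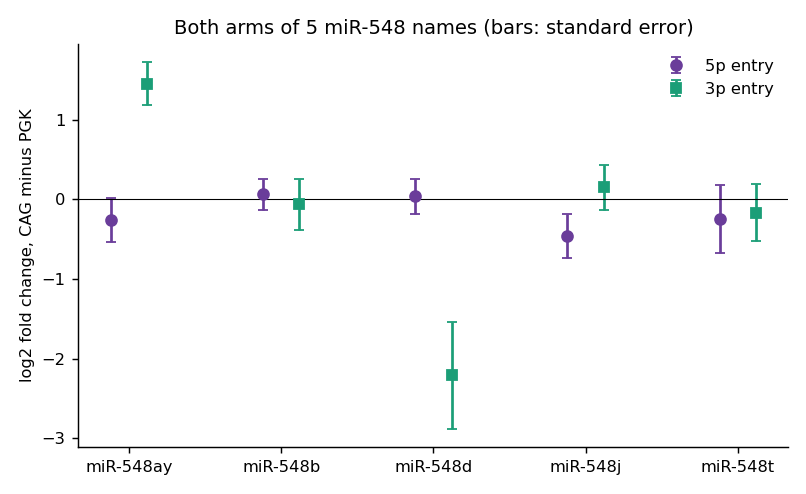
Log2 fold change (CAG minus PGK) of the 5p and 3p entries of the 5 miR-548 names with both arms tested, with bars for the standard error. For miR-548ay the 3p point is at 1.45 and the 5p point at −0.26, and for miR-548d the 3p point is at −2.21 and the 5p point at 0.04.

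Several of these entries are near-copies of each other, and the deposited table holds counts that stand in whole ratios for some of them. Outside the family, miR-199a-3p has 2 hairpins and miR-199b-3p has 1, with the same mature sequence, and their counts stood in a ratio of 2 to 1 (160 and 80, 174 and 86, 408 and 204, 153 and 76 in the order PGK replicates 1 and 2, CAG replicates 1 and 2). miR-365a-3p and miR-365b-3p, identical and with 1 hairpin each, had counts within 2 reads of each other in every library. In the family, miR-548aa had 70, 49, 89 and 22 reads and miR-548t-3p had 35, 24, 44 and 11, a ratio of 2 to 1 within 1 read in every library. No other pair of entries with at least 100 reads stood in a whole ratio of 1, 2 or 3 within 1 read. At lower counts, miR-548c-5p and miR-548o-5p had the same 4, 3, 8 and 2 reads, and miR-548ai had the same 0, 2, 2 and 0 reads as miR-570-5p, whose mature sequence is the same. miR-548ai and miR-570-5p therefore cannot be taken as separate measurements. Whether these or the other pairs share reads was not tested.

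Equal counts were not the rule for every identical set. miR-548aj-5p, miR-548g-5p and miR-548x-5p have the same mature sequence in RefSeq, but they had 10, 6 and 0 reads over all libraries. Among the 1485 pairs of entries with a sequence, 3 were identical, 4 had one sequence contained in the other and 8 differed by 1 base with the 5′ ends aligned. The sources used here do not say how the counting treated a read that fits such neighbours.

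The near-identical 3p entries with large counts can be set side by side. Positions are counted from 1 at the 5′ end, with the base of miR-548ah-3p first. miR-548am-3p differs from miR-548ah-3p by C22U, its last base, miR-548aq-3p by G12A, and miR-548o-3p by A2C, which changes the seed. miR-548av-3p is contained in both miR-548ah-3p and miR-548o-3p. miR-548ah-3p was called, while miR-548am-3p, which has the same seed and a higher level, miR-548o-3p and miR-548aq-3p (log2 fold change 0.64, SE 0.25; edgeR adjusted p = 0.117) were not. When entries contained in each other were summed into 1 feature, miR-548ah-3p, miR-548av-3p and miR-548o-3p became 1 row with a log2 fold change of 0.40 that was not called, and the count of higher entries was 4.

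The stretch CUGCAGUUA was shared by 7 entries, miR-548o-3p, miR-548am-3p, miR-548p, miR-548ah-3p, miR-548ar-3p, miR-548av-3p and miR-548s, and by 0.0865% of the other entries of the table. This set was put together after its values were seen and gets no test. All 7 passed the filter, all 7 had a positive log2 fold change (0.20 to 1.49, median 0.60) and 3 were called. Over all 773 tested miRNAs 49.8% were positive, 8.15% were called higher and 14.2% were called in either direction. The 7 may not be separate measurements, because miR-548av-3p is contained in miR-548ah-3p and miR-548o-3p, which differ by 1 base. The other 7 tested 3p entries with a sequence had values of −0.06 to 1.45 with a median of 0.15, and 6 of these were positive. Without CAG replicate 1, miR-548av-3p stood at −0.15 and miR-548s at −1.04, so the shared direction does not hold in CAG replicate 2 alone. miR-548p, miR-548ah-3p and miR-548ar-3p were the entries of the set with both CAG libraries clear of both PGK libraries and a call.

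**Figure D5:**
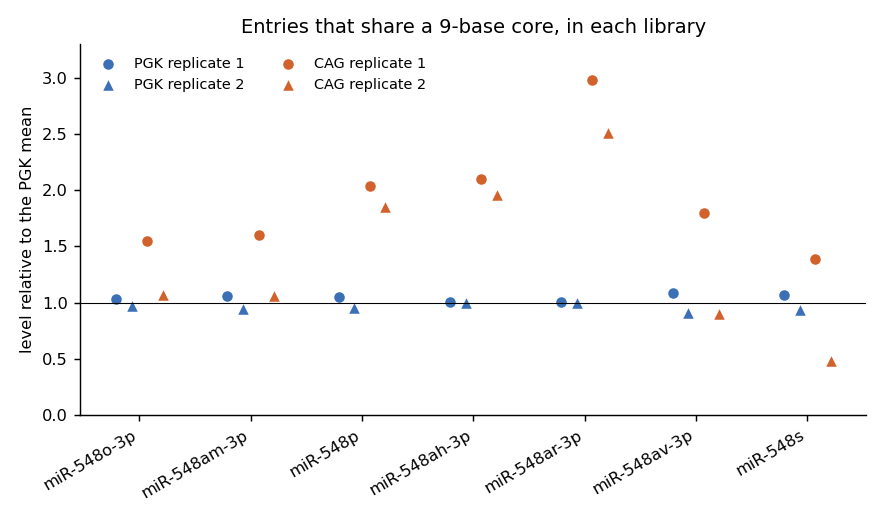
Level of the 7 entries that contain CUGCAGUUA in each library, divided by the mean of the 2 PGK libraries. In miR-548p, miR-548ah-3p and miR-548ar-3p both CAG points are clear of the PGK points, whereas in miR-548o-3p, miR-548am-3p, miR-548av-3p and miR-548s CAG replicate 2 lies near or below the PGK mean.

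The deposited table of seed families was read for the 29 seeds of entries with a sequence. Of these, 18 passed the filter and 2 were called higher (edgeR, adjusted over 642 families, of which 5.76% were called higher and 10.4% in either direction), while 0 were called lower by edgeR, DESeq2 or limma-voom. AAAACCG, whose counts equal the sum of miR-548at-3p and miR-548ay-3p, had a log2 fold change of 1.23 (SE 0.25; edgeR adjusted p = 0.0182). AGCAAAA, whose counts are those of miR-548p alone, had 0.94 (SE 0.24; edgeR adjusted p = 0.042), so it adds no evidence to that entry. Neither family was called without PGK replicate 1, without PGK replicate 2 or without CAG replicate 1.

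The largest seed families of these entries were not called. CAAAACU, with the counts of miR-548o-3p, had a mean of 835 CPM and a log2 fold change of 0.35 (SE 0.21). AAAACUG, which miR-548f-3p, miR-548bc and miR-548ar-3p share, had 521 CPM and a log2 fold change of −0.04 (SE 0.20), and its counts exceeded the sum of those 3 entries by up to 2137 reads in a library. AAAGUAA, the seed of 11 5p entries with a sequence, had 294 CPM and −0.11 (SE 0.17), and its counts exceeded the sum of those 11 by up to 2212 reads in a library. Entries without a sequence could not be included in these sums. AAAAACU, shared by miR-548am-3p, miR-548ah-3p, miR-548aq-3p and 4 others, had 199 CPM and 0.43 (SE 0.21; edgeR adjusted p = 0.239).

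Other miRNAs of transposon origin were read from lists for comparison. The other MADE1-derived entries were scarce: miR-579-5p had a mean of 10.9 CPM and a log2 fold change of 0.03 (SE 0.30), miR-579-3p had 1.25 CPM and −0.06 (SE 0.65), miR-570-3p and miR-570-5p had at most 5 reads in a library, and miR-603 had 0 reads. Neither of the 2 tested was called by edgeR. Of 9 tested miRNAs derived from LINE2 retrotransposons 2 were called lower by edgeR, miR-28-3p (−0.68) and miR-708-5p (−0.76), and the median log2 fold change was −0.41. Of 4 tested from other DNA transposons 1 was called lower, miR-340-5p (−0.57), and the median was −0.24. Whether the miR-548 entries differ from these lists was not tested.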

How the data were processed

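Small RNA was measured in 4 HEK293T libraries, 2 per group, assigned by sample title. Per the labels' protocols, Trizol-isolated RNA went into NEBNext Small RNA libraries. Adapter ligation favours some sequences, so comparing 1 miRNA between libraries is safer than comparing miRNAs. The authors' deposited tables hold raw counts for 2656 mature miRNAs and 2094 seed families. The sources used here do not state the trimming, aligner, annotation, build or rule for reads that fit several entries.

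Tests ran in R 4.3.3 with edgeR 4.0.16 (quasi-likelihood, robust, TMM, group alone) on the whole table after the default low-count filter (minimum count 10, minimum total 15), adjusted by Benjamini-Hochberg. Standard errors were derived from the log2 fold change and the F statistic. The script was tested on simulated data. Alternatives used DESeq2 1.42.0 and limma 3.58.1 (voom), other scalings and filters, left-out libraries, the replicate block, a threshold of 0.01, and identical or contained sequences summed. Python 3.11.15 was used for the rest. Sequences and mature positions come from RefSeq (GRCh38.p14), hosts from GENCODE 29 (GRCh38); the authors' build may differ.

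Members and lists were chosen with earlier results of these data known. The text names every called entry, the 12 most abundant, entries with identical sequences, both arms where both were tested, and the entries nearest the filter: miR-548ba inside with 35 reads in all, and miR-548aq-5p outside with 31. miR-548y, miR-548ao-3p and the CUGCAGUUA entries outside this rule were named after their values were seen.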

Additional observations from a re-analysis of the deposited data

How the results depend on the processing

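The 5 calls among the miR-548 entries were kept in number under RLE, upper-quartile and library size scaling, without a filter, with limma-voom and with identical sequences summed. The count of higher entries was 3 with a filter of 10 CPM in 2 libraries, 3 with the replicate block and 2 at a threshold of 0.01, and 0 to 7 with a library left out. The count of lower entries was 1 with limma-voom and 0 to 2 with a library left out. Over all miRNAs, 39 were higher with the stricter filter, 40 higher and 23 lower with the replicate block, 32 higher and 17 lower at a threshold of 0.01, and 10 to 84 higher and 6 to 78 lower with a library left out. Seed families called higher numbered 1 with upper-quartile scaling, 1 without a filter, 1 with DESeq2, 0 with the replicate block, 0 at a threshold of 0.01 and 0 to 1 with a library left out. The log2 ratio of the summed level ran from −0.03, without CAG replicate 1, to 0.37, without CAG replicate 2. The CAG minus PGK difference in the 5p share was −6.57 to −2.11 percentage points with a library left out.

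Of 32 single entries followed over up to 15 alternatives, 10 uncalled ones changed sign, each only where a library was left out: their ranges there were −0.21 to 0.40 for miR-548f-3p, −0.16 to 0.37 for miR-548bc, −0.03 to 0.14 for miR-548b-5p, −0.20 to 0.21 for miR-548d-5p, −0.22 to 0.29 for miR-548u, −0.29 to 0.58 for miR-548az-5p, −0.35 to 0.04 for miR-548t-3p, −0.33 to 0.02 for miR-548aa, −0.15 to 0.84 for miR-548av-3p and −1.04 to 0.47 for miR-548s. The cause was not tested. Replicate numbers are shared by the groups, but their deviations did not move together (correlation −0.0153 over 773 miRNAs), so the numbers were not taken as pairs. With the replicate block miR-548ah-3p and miR-548p lost their calls (edgeR adjusted p = 0.0503 and 0.0536). Depth limits entries under about 1 CPM, most of all in CAG replicate 2, where 1 read is worth 0.324 CPM.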
